A study of Mus musculus with 12 samples.

Results

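Of the 12 KCip53-1 tumors with RNA-seq, 8 had been exposed to doxycycline (dox) and 4 had never received it, and this contrast was followed across all genes. Each exposed tumor was included whether or not dox was still being given at collection. KCip53-1 is 1 cell line, derived from the primary pancreatic tumor of a mouse carrying TREp53R270H and R26rtTa/rtTa, sorted on dsRed, and without its wild-type p53 allele. In all 12 tumors 500000 of these cells had been implanted under the skin of NSG mice aged 8 to 10 weeks, a strain without mature T, B and NK cells, with 2 tumors per mouse. The 4 plus-dox tumors came from mice given dox at 0.2 g/l in 5% sucrose for 36 days, the 4 off-dox tumors from mice given it for 33 days and then kept off it for 3 days, and the 4 no-dox tumors from mice with 0 days of dox. The inducible allele was therefore present in the cells of every group. No statement was found on whether the no-dox mice drank sucrose, so dox, sucrose and mutant p53 exposure cannot be told apart in this contrast. Which tumors came from the same mouse was not given either, so p-values measure the spread between tumors.

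p53 is a transcription factor that halts the cell cycle or starts cell death after damage, and most pancreatic cancers carry a missense mutation in its DNA-binding domain. R270H in the mouse is one such mutation, and the mutant protein no longer activates the usual p53 target genes. A tetracycline-inducible allele is designed so that the rtTA protein switches the transgene on only while dox is present.

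The mutated codon is printed in its reference Trp53 sequence because the transgene differs there and gene-level reads otherwise pool transgene and wild-type Trp53. The stretch is coding sequence of 1 Trp53 exon at chr11:69403079-69403141 on the plus strand (mm9, GENCODE M1 transcript Trp53-201), and the capitals mark codon 270, an arginine codon that R270H turns into histidine.
Trp53 codon 270: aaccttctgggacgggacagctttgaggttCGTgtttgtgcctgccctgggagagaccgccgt

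Trp53 itself did not separate the groups. Its gene-level abundance in no-dox tumors 1 to 4 was 48.2, 57.4, 40.1 and 45.2 reads per kilobase of exon, scaled to the mapped reads of each library (RPKM), and the 8 exposed tumors ranged from 40.4 to 56.0 RPKM with a median of 45.2. The ranges overlapped almost entirely, and the log2 fold change of exposed over no-dox tumors was -0.02 ± 0.10 (SE; adjusted p = 0.905, edgeR's quasi-likelihood test with Benjamini-Hochberg adjustment; exact permutation p = 0.869). Gene-level counts do not show which copy was transcribed, so the groups rest on their labels.

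The libraries held 19845923 to 33137609 reads counted on genes. Each library's share of mapped reads counted on genes came to 88.4, 89.0, 89.2 and 89.4% in the no-dox tumors, in ascending order, and 81.1 to 87.1% with a median of 83.7% in the exposed tumors. No exposed tumor reached the lowest no-dox tumor. The means were 84.0% ± 2.22 (SD, n = 8) and 89.0% ± 0.444 (SD, n = 4), a difference of -4.99 percentage points (exact two-sided permutation test over 495 splits, p = 0.00404, the smallest these splits allow), and it lay between -5.43 and -4.57 when any 1 tumor was left out. Reads outside the gene models can come from introns or intergenic sequence, and the files do not divide them further. Plus-dox 2 and off-dox 4 stood apart on the first principal component, which held 49.8% of the variance of log2 CPM. Xist, the RNA of the inactive X chromosome, was at 4.25 and 4.89 RPKM in plus-dox 3 and 4 and at most 0.0485 RPKM elsewhere. The Y-linked Ddx3y was at 16.9 to 21.5 RPKM in all 12 tumors. The authors used NSG mice of both sexes, and host sex by tumor was not available here. Host sex may therefore differ between the groups, and it was not modelled.

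**Figure D1:**
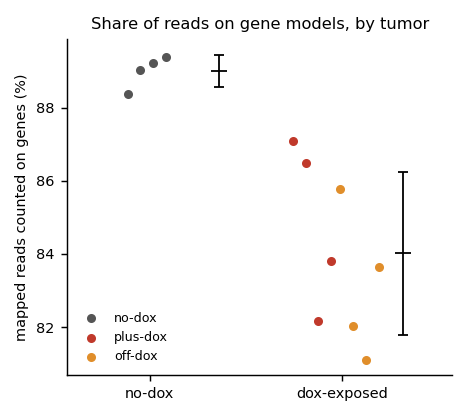
Share of mapped reads counted on gene models (percent) for each of the 12 tumors, with the mean ± SD of the 4 no-dox and the 8 exposed tumors. The exposed tumors lie between 81.1 and 87.1%, all below the no-dox tumors at 88.4 to 89.4%.

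Past a 1.5-fold limit, more genes were higher than lower in dox-exposed tumors. Genes were called where the adjusted p lay below 0.1, the fold exceeded 1.5 and the mean exceeded 0.25 RPKM. By these limits, 223 of 14350 genes were called (1.55%), of which 177 were higher (1.23%) and 46 lower (0.321%) in exposed tumors. Without the fold limit, 456 genes were higher (3.18%) and 432 lower (3.01%), with median log2 fold changes of 0.49 and -0.38. The log2 CPM of all 8 exposed tumors lay above all 4 no-dox tumors for 333 genes (2.32%) and below them for 411 (2.86%), and of the called genes 133 did not overlap, 115 higher and 18 lower. The smallest adjusted p was 0.0696, so at a limit of 0.05 edgeR called 0 genes. Of the 14350 genes, 3574 were at an unadjusted p under 0.05, and list counts at that limit stand beside this share. Leaving out 1 tumor gave 0 called genes for each no-dox tumor, plus-dox 3 and 4 and off-dox 2, 3 and 4 (2692 to 3333 at an unadjusted p under 0.05), 209 without plus-dox 2, 374 without off-dox 1 and 451 without plus-dox 1, and DESeq2 called 388 genes on all 12. The whole profile gave a pseudo-F of 1.98 for exposure, with 16.6% of the variance of log2 CPM (exact permutation p = 0.0909), and of 2.55 with each gene scaled to unit variance (exact permutation p = 0.0162).

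**Figure D2:**
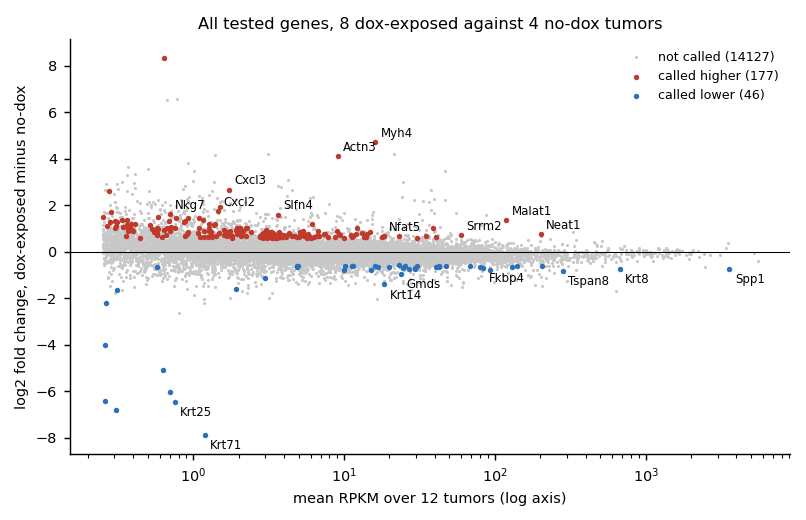
Log2 fold change of exposed over no-dox tumors (y axis) against mean RPKM over 12 tumors (x axis, log scale), 1 point per gene tested. The 177 called higher genes sit mostly at low RPKM, with a median of 2.24, and the 46 called lower genes at a median of 19.1.

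The direction of the difference went with transcript length. Among quintiles of the tested genes by exonic length, the median log2 fold change was -0.12, -0.10, -0.05, 0.03 and 0.17 from the shortest quintile (266 to 1499 bp) to the longest (4562 to 104320 bp). In the shortest quintile 34.6% of genes had a positive fold change, and in the longest 73.8%. Adjusted p without the fold limit was under 0.1 for 23 higher and 131 lower genes in the shortest quintile and for 267 higher and 9 lower in the longest. The called higher genes had a median exonic length of 3757 bp and the called lower genes of 1798 bp, against 2712 bp over all genes tested. The medians of the shortest and longest quintile were -0.07 and 0.09 with only the 3 exposed tumors over 85% of reads on genes, and -0.16 and 0.20 with the 5 others. Within single tumors, log2 CPM relative to the mean of each gene over the 12 tumors was averaged in each quintile, and the longest minus the shortest quintile gave -0.29, -0.05, -0.36 and 0.05 in no-dox tumors 1 to 4 and -0.12 to 0.26 (median 0.09) in exposed tumors, so the groups overlapped in this measure.

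**Figure D3:**
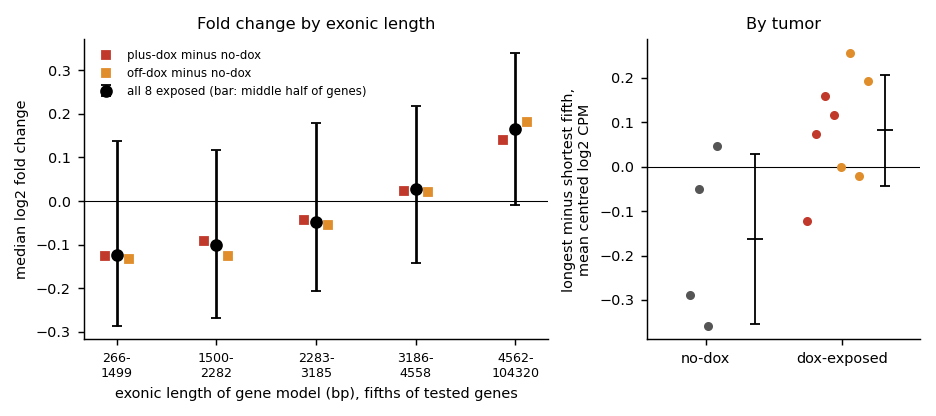
Log2 fold change of exposed over no-dox tumors by quintile of exonic length, from the shortest to the longest genes, with median and quartiles. The medians climb from -0.12 to 0.17.

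RNAs that stay in the nucleus were among the clearest differences. In a list of 9 such RNAs, 3 were called higher and 0 lower, against 1.23% and 0.321% of all genes. All 9 had a positive log2 fold change, and the median was 0.76 against -0.01 over all genes tested. Malat1, a long noncoding RNA of nuclear speckles (chr19:5795690-5802671, mm9), was at 68.8, 72.8, 51.2 and 43.8 RPKM in no-dox tumors 1 to 4 and at 83.2 to 192 RPKM (median 157) in the exposed tumors. The groups did not overlap, and the log2 fold change was 1.37 ± 0.24 (SE; adjusted p = 0.0696, edgeR). Neat1, the scaffold of paraspeckles (chr19:5842302-5845478), was at 189.5, 111, 146 and 114 RPKM in the no-dox and 179 to 348 RPKM (median 205) in the exposed tumors, where the lowest exposed tumor lay under no-dox 1. Its log2 fold change was 0.76 ± 0.21 (adjusted p = 0.0855, edgeR). Kcnq1ot1, a nuclear antisense RNA within Kcnq1, was at 0.405 to 0.507 RPKM without dox and 0.581 to 1.22 RPKM after it (1.01 ± 0.18 on the log2 scale), though unstranded counting cannot separate it from reads of Kcnq1. The summed RPKM of the list was 182 to 291 in no-dox and 307 to 585 in exposed tumors.

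The share of reads on genes was set against these RNAs inside the exposed group as well. Over the 8 exposed tumors, Malat1 (log2 CPM) correlated with that share at Pearson's r = -0.80 (exact permutation p = 0.0193, adjusted over 6 relations 0.0783) and Spearman's rank correlation = -0.74 (exact permutation p = 0.0458, adjusted 0.115), and r was -0.49 without the 2 tumors farthest from the median share. Neat1 gave r = -0.70 (exact permutation p = 0.0543, adjusted 0.109) and the called splicing factor gene Srrm2 r = -0.76 (exact permutation p = 0.0261, adjusted 0.0783), and without the same 2 tumors r was -0.65 and -0.67. Their rank correlations were both -0.71 (exact permutation p = 0.0576, adjusted 0.115). The called lower genes Krt8, Spp1 and Tspan8 gave r = 0.55, 0.21 and 0.21 (exact permutation p = 0.159, 0.616 and 0.626), and 0.77, 0.60 and 0.75 without those tumors. With the share as a covariate the log2 fold change of Malat1 was 0.45, that of Neat1 0.12 and that of Kcnq1ot1 0.27. Because the share separates the exposed from the no-dox tumors completely, that fit compares the groups at shares they do not have in common.

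Nfat5, a transcription factor of the response to osmotic stress (chr8:109817370-109903417), was at 13.9, 12.5, 12.8 and 13.8 RPKM in the no-dox tumors and at 17 to 24.4 RPKM (median 21.7) in the exposed tumors, with no overlap and a log2 fold change of 0.67 ± 0.12 (adjusted p = 0.0696, edgeR). Mapk8ip3, a scaffold of JNK signalling, Nav1, a protein of growing microtubules, and Eif2c3, an Argonaute protein, also did not overlap between groups, with log2 fold changes of 0.66, 0.66 and 0.78. Some further long genes, named after their values were seen, were called higher too. The splicing factor Srrm2 was at 37.0 to 49.1 RPKM without dox and at 47.7 to 88.5 RPKM with it (0.70 ± 0.15 on the log2 scale), and the cytolinker Dst at 5.44 to 8.53 against 9.24 to 22.2 RPKM (1.03 ± 0.24). Macf1, which links actin to microtubules, was higher by 0.59, the histone methyltransferases Mll1 and Mll2 by 0.65 and 0.65, the O-GlcNAc transferase Ogt by 0.64 and Mdn1, a ribosome assembly factor, by 0.62. The rule for named genes also picked 4932411L15 (2.98 to 3.67 against 4.62 to 9.19 RPKM, 1.19 ± 0.18), Zmynd17 (0.372 to 0.677 against 0.976 to 3.62 RPKM, 1.94 ± 0.39) and Vmn1r58 (3.28 to 3.42 against 4.47 to 7.24 RPKM, 0.86 ± 0.15), the last from a family of vomeronasal receptors with similar sequences. Among all called higher genes, 31 of 177 (17.5%) carried placeholder symbols, against 8.47% of the genes tested.

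Receptors of neutrophils and some of their chemokines were higher in exposed tumors. Cxcr2, the receptor through which neutrophils follow CXC chemokines (chr1:74200568-74207820), was at 1.48, 1.48, 1.22 and 1.30 RPKM in the no-dox tumors and 1.78 to 3.44 RPKM (median 2.55) in the exposed tumors. No tumor crossed between the groups, and the log2 fold change was 0.89 ± 0.17 (adjusted p = 0.0696, edgeR). Csf3r, the G-CSF receptor, was likewise separated, at 3.50 to 4.47 against 4.55 to 9.02 RPKM (0.71 ± 0.15). These were the 2 called members among 7 tested neutrophil markers, whose median log2 fold change was 0.53, against 1.23% of all genes called higher. The alarmins S100a8 and S100a9, abundant in neutrophils, both had log2 fold changes of 0.53, with adjusted p = 0.231 and 0.235. In bulk tumors, more cells of a type and more RNA per cell cannot be told apart.

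Of 14 neutrophil-attracting chemokines and cytokines, 2 were called higher and 0 lower, against 1.23% and 0.321% of all genes. The median log2 fold change was 0.66. The ligand Cxcl2 (chr5:91332925-91334964) was at 0.665, 0.635, 0.450 and 0.556 RPKM in the no-dox tumors and 0.798 to 4.68 RPKM (median 1.51) in the exposed tumors, a non-overlapping difference of 1.74 ± 0.43 (adjusted p = 0.0742, edgeR). Cxcl3, from the same gene cluster, was at 0.465, 0.393, 0.137 and 0.533 RPKM without dox and 0.311 to 8.90 RPKM (median 1.76) with it, and here the lowest exposed tumor lay within the no-dox range. Off-dox 2 held the highest value of both ligands. The related and more abundant ligands Cxcl1 and Cxcl5, looked up after the others were seen, had negative values of -0.36 and -0.44 with adjusted p = 0.504 and 0.392. Among 14 CC chemokines, Ccl4 was called higher, at 2.03 to 2.40 against 2.30 to 5.52 RPKM (0.84 ± 0.25, adjusted p = 0.0994).

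Markers of cytotoxic lymphocytes were low in every tumor, and some of them rose. Of 15 listed T and NK cell markers, 9 passed the limit of 0.25 mean RPKM and were tested. Eomes passed only through the exposed tumors, with means of 0.236 RPKM in no-dox and 0.401 RPKM in exposed tumors. All 9 tested markers had positive log2 fold changes, with a median of 1.24. Of the 9, 2 were called higher, against 1.23% of all genes. The list median was 0.51 with the share covariate and 0.62 with only the exposed tumors over 85% of reads on genes. Nkg7, a protein of cytotoxic granules, was at 0.326, 0.123, 0.385 and 0.332 RPKM in the no-dox tumors and 0.501 to 1.11 RPKM (median 0.947) in the exposed tumors, without overlap (1.63 ± 0.34 on the log2 scale, adjusted p = 0.0696, edgeR). Ncr1, the NK cell receptor NKp46, was at 0.221 to 0.700 and 0.501 to 2.05 RPKM, which overlap (1.45 ± 0.41, adjusted p = 0.0934). The T cell receptor chain Cd3e was at 0 in some tumors of both groups and at most 0.149 RPKM, and the granule proteases and pore protein Gzma, Gzmb and Prf1 had values of 1.38, 1.62 and 1.24 with adjusted p from 0.161 to 0.191. Klrk1, an activating receptor, and the chemokine Xcl1, both made by NK cells and named after their values were seen, were called higher by 1.06 and 1.20. The list members Klrb1c and Eomes, looked up in the same way, were not called, at 0.45 and 0.80 with adjusted p = 0.344 and 0.259 (edgeR). Summed over the list, the level was 5.29 to 10.5 RPKM in no-dox and 10.4 to 28.8 RPKM in exposed tumors, and these ranges overlapped.

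None of 13 macrophage markers was called (edgeR; 1 at an unadjusted p under 0.05; 0 with DESeq2 and limma-voom), and Lyz2 and C1qa, among the most abundant, differed by 0.08 and -0.06. Slfn4, a Schlafen family gene of myeloid cells that resembles its neighbours in sequence, was at 1.81, 1.73, 1.77 and 0.951 RPKM without dox and 3.06 to 7.79 RPKM (median 4.04) with it, a non-overlapping difference of 1.60 ± 0.26 (adjusted p = 0.0696, edgeR). Siglec1, a macrophage sialic acid receptor, Cd274, which encodes PD-L1, and Tcirg1, a proton pump subunit, were called higher by 0.69, 0.71 and 0.68, and were picked after their values were seen. No member passed among 22 interferon-stimulated genes (median -0.19; 0 at an unadjusted p under 0.05, 0 with DESeq2 and limma-voom) or 19 MHC genes (median -0.28; 3 at an unadjusted p under 0.05; 1 with DESeq2 without moderated fold changes), and the MHC median turned to 0.11 with the share covariate. These 0 calls stand beside 1.55% called over all genes, and the counts at an unadjusted p under 0.05 beside 3574 of 14350.

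Vessel wall and matrix genes included further separated genes at modest levels. Notch3, a receptor of pericytes and vascular smooth muscle (chr17:32257838-32303797), was at 1.66, 1.21, 1.51 and 1.06 RPKM in the no-dox tumors and 1.84 to 3.6 RPKM (median 2.73) in the exposed tumors, with a log2 fold change of 1.03 ± 0.23 (adjusted p = 0.0696, edgeR). Abcc9, a potassium channel subunit of the same cells, was at 1.17 to 1.34 against 1.45 to 4.07 RPKM (1.01 ± 0.27). Notch3 and Abcc9 were the 2 called members of 10 pericyte and smooth muscle markers (median 0.50), against 1.23% of all genes called higher. All 14 endothelial markers had positive fold changes (median 0.38), and the transcription factor Erg was called, at 1.87 to 2.11 against 2.30 to 4.53 RPKM. The values of Notch3, Abcc9 and Erg in every exposed tumor were above every no-dox tumor. Pdgfrb, the receptor of pericytes and fibroblasts, missed the limit, at 12.8 to 13.9 against 13.0 to 29.3 RPKM (0.58 ± 0.19, adjusted p = 0.120).

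Fbn1, the fibrillin of elastic microfibrils (chr2:125126330-125332174), was at 22.8, 25.9, 24.3 and 19.9 RPKM in the no-dox and 26.7 to 41.6 RPKM (median 33.1) in the exposed tumors, without overlap (0.59 ± 0.13, adjusted p = 0.0696, edgeR). With the latent TGF-beta binding protein Ltbp2 (0.70, adjusted p = 0.0958) it made up the called members of 23 matrix glycoproteins and proteoglycans, of which 17 were positive (median 0.25). Of 18 collagens, 16 were positive (median 0.34) and 1, Col11a2, was called. For both lists, 1.23% of all genes called higher is the share to compare. Col11a2 was at 0.119 to 0.291 against 0.352 to 0.539 RPKM. Its means were 0.203 RPKM in no-dox and 0.442 RPKM in exposed tumors, so it passed the 0.25 RPKM limit only through the exposed tumors. The abundant fibrillar collagens Col1a2 and Col3a1 spread widely within both groups, with differences of 0.23 ± 0.21 and 0.25 ± 0.35, which were 0.51 and 0.60 for plus-dox and -0.12 and -0.20 for off-dox tumors. None of 13 fibroblast markers was called by edgeR or limma-voom, and 1 was with DESeq2 without moderated fold changes. At an unadjusted p under 0.05 there were 2, against 3574 of 14350 genes tested. Their median was 0.23 in the pooled contrast, 0.51 under ongoing dox and -0.20 after withdrawal.

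Of 15 tested genes of the epithelial to mesenchymal transition (EMT), 12 were positive and 3 negative (median 0.28). The 1 called higher stands beside 1.23% of all genes. Zeb2, a repressor of epithelial genes, was the 1 called member of 15, at 7.19 to 9.08 against 8.94 to 15.5 RPKM (0.64 ± 0.17, adjusted p = 0.0812), with overlap. Its paralog Zeb1 passed the adjusted p limit and stayed under the fold limit, at 8.22 to 9.87 against 10.7 to 16.7 RPKM (0.54 ± 0.12, adjusted p = 0.0696). The intermediate filament gene Vim (0.17, adjusted p = 0.672), the factor Twist1 (0.25, adjusted p = 0.393) and the adhesion gene Cdh1 (-0.67, adjusted p = 0.330) did not pass. Plus-dox 2 alone held 1756 RPKM of Vim.

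Skeletal muscle genes differed by large and uneven amounts. All 18 tested markers were positive, with a median log2 fold change of 2.26, of which edgeR called 2, limma-voom 0 and DESeq2 2 with and 11 without moderated fold changes. The 2 calls by edgeR stand beside 1.23% of all genes called higher. The median was 0.66 with the share covariate. The myosin Myh4 was at 0.755, 2.29, 0.560 and 0.143 RPKM in no-dox tumors 1 to 4 and 0.799 to 77.4 RPKM (median 12.9) in exposed tumors, and the alpha-actinin Actn3 at 1.28, 0.675, 0.864 and 0.323 and at 0.666 to 40.4 RPKM (median 8.00). Both overlapped between the groups, with log2 fold changes of 4.71 ± 1.4 (adjusted p = 0.0985) and 4.10 ± 1.03 (adjusted p = 0.0762, edgeR). The summed RPKM of the list ran from 14.2 to 241 without dox and from 16.5 to 1703 with it. The exposed tumors lowest in both genes, plus-dox 4, off-dox 1 and off-dox 4, were also the lowest exposed tumors in Zmynd17. The part of host muscle in that and other differences was not tested.

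Skin and fat markers were uneven among the no-dox tumors. Of 9 tested epidermis and hair follicle markers 3 were called lower, Krt14, Krt71 and Krt25, against 0.321% of all genes. Of the 9, 5 were positive, and the median was 0.08. Krt71 and Krt25 had exposed means of 0.0140 and 0.0213 RPKM and passed the 0.25 RPKM limit only through the no-dox tumors. The hair follicle keratin Krt71 was at 13.4, 0.0306, 0.0959 and 0.720 RPKM in no-dox tumors 1 to 4 and at 0 to 0.0562 RPKM in exposed tumors, and Krt25 at 8.09, 0.0201, 0.0708 and 0.716 and 0 to 0.123 RPKM. No-dox 1 held nearly all of these reads, and a fitted fold for genes this close to 0 is not given. Krt14, a basal keratin also made by squamous tumor cells, was less dependent on 1 tumor, at 27.9, 47.7, 36.3 and 14.4 RPKM in the no-dox and 4.25 to 18.7 RPKM (median 11.3) in the exposed tumors (-1.39 ± 0.36, adjusted p = 0.0800, edgeR), and Lgals7, a galectin of stratified epithelium, at 7.23, 2.73, 2.38 and 1.76 and 0.561 to 1.73 RPKM (-1.60 ± 0.39). The 11 adipocyte markers were all negative (median -0.66, and 0.02 with the share covariate). None was called by edgeR, DESeq2 or limma-voom, and 1 was at an unadjusted p under 0.05, against 3574 of 14350 genes tested. Cfd ran from 1.11 to 579.6 RPKM within the no-dox tumors alone.

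Some abundant transcripts of epithelial and secreted proteins fell. Krt8, a keratin of simple epithelium (chr15:101827142-101834773), was at 829.6, 966, 935 and 972 RPKM in the no-dox tumors and 318 to 809.6 RPKM (median 529) in the exposed tumors. Every exposed tumor was below the lowest no-dox value in RPKM, while the groups overlapped in log2 CPM, and the log2 fold change was -0.74 ± 0.18 (adjusted p = 0.0725, edgeR). Its partner Krt18 (-0.39, adjusted p = 0.211) and the ductal keratin Krt19 (-0.62, adjusted p = 0.192) were not called. Across 15 epithelial markers Krt8 was the 1 called lower, against 0.321% of all genes. Of the 15, 11 were negative and the median was -0.54.

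Spp1, the secreted phosphoprotein osteopontin (chr5:104864130-104870072), and the tetraspanin Tspan8 (chr10:115254340-115286949) are named here after their values were seen. Spp1 was at 5199, 3917, 5067 and 5502 RPKM in the no-dox tumors and 1824 to 4393 RPKM (median 2955) in the exposed tumors, which overlapped, with a log2 fold change of -0.73 ± 0.20 (adjusted p = 0.0846, edgeR). Tspan8 did not overlap, at 385, 417, 378 and 408 RPKM against 117 to 338 RPKM (median 207; -0.81 ± 0.22, adjusted p = 0.0846). The Golgi protein Golm1 (106 to 155 against 48.9 to 104 RPKM), the GDP-mannose dehydratase Gmds of fucose synthesis (31.4 to 43.7 against 9.39 to 29.6 RPKM) and the homeobox gene Barx2 (3.39 to 5.76 against 0.707 to 3.33 RPKM) were also called lower without overlap, by -0.78, -0.94 and -1.13 on the log2 scale.

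Among the other lower genes without overlap, Fkbp4, a co-chaperone of HSP90 and steroid receptors (chr6:128380125-128388649), had 98.0, 119.6, 133 and 100.3 RPKM in the no-dox tumors and 51.2 to 88.5 RPKM (median 66.1) in the exposed tumors (-0.69 ± 0.16, adjusted p = 0.0696, edgeR). The zinc transporter Slc39a11 was at 19.1 to 25.2 against 11.2 to 17.7 RPKM (-0.63 ± 0.12) and the phospholipid scramblase Plscr1 at 85.2 to 94.9 against 39.9 to 77.8 RPKM (-0.60 ± 0.14). Gcat of threonine breakdown (-0.61), the acyltransferase Mboat1 (-0.62), Glod4 (-0.59), Dirc2 (-0.61) and the microtubule nucleation protein Mzt2 (-0.59) followed. Jakmip1 had the lowest level of these, at 0.251 to 0.906 against 0.0128 to 0.239 RPKM. Its means were 0.549 RPKM in no-dox and 0.119 RPKM in exposed tumors, so it passed the 0.25 RPKM limit only through the no-dox tumors.

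**Figure D4:**
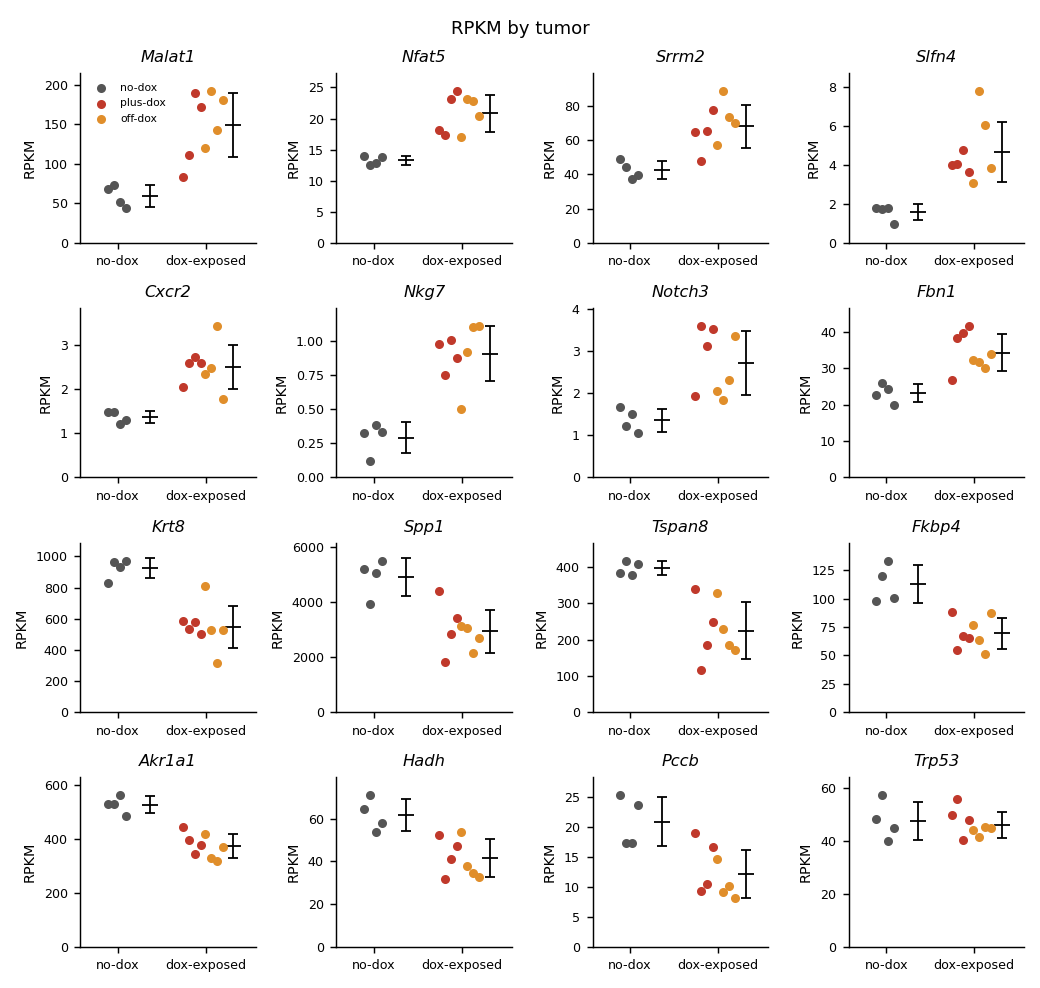
RPKM of 16 genes in each tumor (points, no-dox, plus-dox and off-dox), with bars at the mean ± SD of the 4 no-dox and of the 8 exposed tumors. Malat1, Nfat5, Slfn4, Cxcr2 and Notch3 lie above and Tspan8, Fkbp4, Akr1a1 and Hadh below the no-dox tumors in every exposed tumor, while Trp53 overlaps.

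Of 24 genes of branched chain amino acid degradation, 23 were negative (median -0.34), 14 passed the adjusted p limit as lower and 0 as higher, against 3.01% and 3.18% of all genes, and 1 was past the fold limit. That 1 was Pccb, a subunit of propionyl-CoA carboxylase (chr9:100882457-100935294), at 25.4, 17.4, 17.4 and 23.7 RPKM in the no-dox and 8.10 to 19.0 RPKM (median 10.4) in the exposed tumors (-0.77 ± 0.21, adjusted p = 0.0846, edgeR). Its partner Pcca (-0.51), Bckdha of the branched chain ketoacid dehydrogenase (-0.55), the carboxylase subunit Mccc2 (-0.52) and the ketone body enzyme Oxct1 (-0.49) passed the adjusted p limit only. Oxct1, Bckdha and Echs1 had been picked by the study on these samples, so their place in the list is not independent evidence of its direction. Summed over the list, the level was 535 to 629 RPKM in no-dox and 406 to 533 RPKM in exposed tumors, on a scale that divides by all mapped reads.

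All 19 genes of fatty acid oxidation were negative (median -0.34) and 9 passed the adjusted p limit, none of them past 1.5-fold. Echs1, picked by the study on these samples, was among those that passed (adjusted p = 0.0949, edgeR). It is also in the branched chain list, so the lists are not fully separate. Over all genes, 3.01% passed as lower. Hadh, the hydroxyacyl-CoA dehydrogenase (chr3:130936342-130974955), was at 64.6, 70.8, 53.9 and 57.8 RPKM in the no-dox and 31.7 to 53.8 RPKM (median 39.3) in the exposed tumors (-0.56 ± 0.14, adjusted p = 0.0742, edgeR). Etfb, which passes their electrons to the respiratory chain, was at 111, 109, 105 and 95.3 and 58.6 to 100.1 RPKM (-0.49 ± 0.13), and Acadm and Hadhb differed by -0.44 and -0.46. The list summed to 837 to 908 RPKM without dox and 587 to 817 RPKM with it. Of 21 aldehyde, alcohol and glutathione enzymes, 20 were negative (median -0.41) and 4 passed the adjusted p limit, among them the aldehyde reductase Akr1a1 (chr4:116309115-116324256) at 532, 532, 563 and 487 RPKM against 317 to 446 RPKM (median 374; -0.48 ± 0.10, adjusted p = 0.0696, edgeR). The formaldehyde-clearing enzyme Adh5 (-0.48) and Aldh9a1 (-0.41) were separated too.

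Of 73 oxidative phosphorylation subunits 68 were negative (median -0.21) and 9 passed the adjusted p limit as lower, against 3.01% of all genes, among them the complex I subunit Ndufv1 (-0.48). Of 76 mitochondrial ribosomal proteins 72 were negative (median -0.22), and again 9 passed as lower. In the TCA cycle list 20 of 23 were negative (median -0.19), with Idh2 (-0.50) and Suclg1 (-0.50) among the 4 that passed. The pentose phosphate enzymes Taldo1 (-0.47) and Tkt (-0.46) passed within a list of 23 genes with glycolysis whose median was -0.05, and Ldha and Pgk1 differed by -0.23 and 0.02. Cytosolic ribosomal proteins had a median of -0.04 over 83 genes, with 1 past the adjusted p limit. None of these 5 lists held a called gene with edgeR or limma-voom. At an unadjusted p under 0.05, 30 oxidative phosphorylation and 30 mitochondrial ribosomal genes were lower. Over all genes tested, 3574 of 14350 were at that limit in either direction. DESeq2 called 1 TCA cycle gene with and 3 without moderated fold changes. With the share of reads on genes as a covariate the TCA list median was 0.01, that of oxidative phosphorylation subunits -0.10 and that of mitochondrial ribosomal proteins -0.10. Under that covariate the medians were -0.18 for branched chain amino acid degradation, -0.14 for fatty acid oxidation and -0.17 for the aldehyde list. Without the covariate, the median over all tested genes was -0.01. In the shortest quintile by exonic length it was -0.12, with 34.6% of genes positive. The part of exonic length in the negative medians of these lists was not tested.

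**Figure D5:**
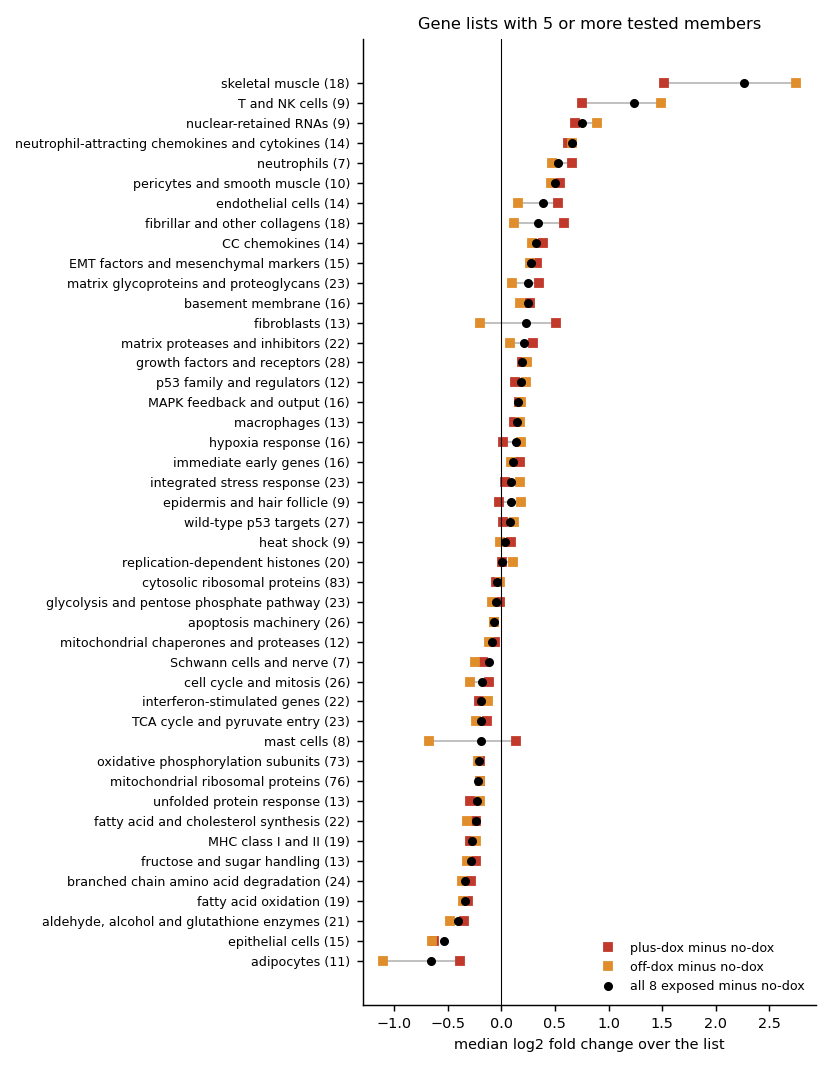
Median log2 fold change of exposed over no-dox tumors for gene lists with at least 5 tested members (dots), with plus-dox and off-dox tumors alone as squares. Skeletal muscle at 2.26, T and NK cells at 1.24 and nuclear-retained RNAs at 0.76 lie highest, and adipocytes at -0.66 and epithelial cells at -0.54 lowest.

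Genes that wild-type p53 activates showed no shared direction. Of 27 tested targets, 16 were positive and 11 negative (median 0.08), and none was called (edgeR; 8 at an unadjusted p under 0.05; 0 with DESeq2 and limma-voom). The 8 at an unadjusted p under 0.05 stand beside 3574 of 14350 genes tested. Without the fold limit 2 passed as higher and 2 as lower, against 3.18% and 3.01% of all genes. The higher were Zmat3, an RNA-binding repressor of growth (2.76 to 3.12 against 3.51 to 4.53 RPKM, 0.46 ± 0.09), and the kinase Plk3 (0.53 ± 0.14). The lower were the desmosome gene Perp (65.8 to 73.1 against 31.1 to 66.4 RPKM, -0.53 ± 0.16) and the autophagy gene Ei24 (-0.39 ± 0.08). The cell cycle inhibitor Cdkn1a was at 21.3, 23.9, 25 and 25.1 RPKM in the no-dox and 22.4 to 39.3 RPKM in the exposed tumors, with overlap (0.38 ± 0.17, adjusted p = 0.203), and the apoptosis gene Bax differed by -0.03 ± 0.11. Mdm4, an inhibitor of p53, passed without the fold limit at 0.55 ± 0.14 (adjusted p = 0.0784, edgeR). Cdkn2a, which encodes p16 and ARF, differed by -0.47 ± 0.15 (adjusted p = 0.114) and Thbs1 by 0.25 ± 0.17 (adjusted p = 0.369).

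Proliferation and stress lists gave no called gene with edgeR. Among 26 cell cycle genes 23 were negative (median -0.18; 4 at an unadjusted p under 0.05; 0 with DESeq2 and limma-voom), the median turned to 0.02 with the share covariate, and the proliferation marker Mki67, at 7.85, 11.8, 7.36 and 6.59 RPKM without and 7.05 to 11.7 RPKM with dox, differed by 0.24 ± 0.15. In 26 genes of the apoptosis machinery (median -0.07), 2 passed the adjusted p limit as lower and 1 as higher, against 3.01% and 3.18% of all genes. The lower were the adaptors Fadd (-0.43) and Tradd (-0.38), and the higher was the caspase-8 inhibitor Cflar (0.41). The unfolded protein response had 11 of 13 negative (median -0.23; 6 at an unadjusted p under 0.05). The integrated stress response had a median of 0.09 over 23 genes, with 2 at an unadjusted p under 0.05 and 1 called by DESeq2. Over all genes tested, 3574 of 14350 were at that unadjusted limit.

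Plus-dox and off-dox tumors were also set side by side. Both arms share the 4 no-dox tumors and the genes were called on the pooled arms, so that all 223 have the same sign in both is largely fixed by the selection. For the 177 called higher genes the median log2 fold change was 0.71 under ongoing dox and 0.86 after its withdrawal, and off-dox lay farther from no-dox for 136. For the 46 called lower genes the medians were -0.66 and -0.77, with off-dox farther for 34. On the log2 scale, with plus-dox given before off-dox, Malat1 was at 1.26 and 1.47, Cxcr2 at 0.88 and 0.90, Notch3 at 1.18 and 0.86, Krt8 at -0.74 and -0.74 and Pccb at -0.59 and -0.97. Tested directly, off-dox against plus-dox gave 0 called genes (edgeR, smallest adjusted p 1, 416 genes at an unadjusted p under 0.05). Against no-dox, plus-dox tumors alone gave 0 called genes (smallest adjusted p 0.322, 2067 at an unadjusted p under 0.05) and off-dox tumors alone 235, of which 181 were higher and 54 lower.

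Calls were also repeated in subsets of the exposed tumors, chosen after seeing the data, and with the share of reads on genes as a covariate. The 3 exposed tumors over 85% gave 0 calls (819 genes at an unadjusted p under 0.05), the 5 others 807, and the covariate fit 0 (338 at an unadjusted p under 0.05). Those 3 were plus-dox 1, plus-dox 2 and off-dox 1. The subsets thus also differed in size, and so in power, and in arm, and their counts do not isolate the read share. The 177 higher genes had a median log2 fold change of 0.79 with all exposed tumors and 0.46 under the covariate, and the 46 lower genes -0.68 and -0.43, which are descriptions, since the genes were called on these same tumors. The named genes moved by unequal amounts under that covariate. Srrm2 went from 0.70 to 0.22, Nfat5 from 0.67 to 0.23 and Krt8 from -0.74 to -0.28, whereas Notch3 went from 1.03 to 0.98, Nkg7 from 1.63 to 1.21, Fbn1 from 0.59 to 0.47 and Spp1 from -0.73 to -0.48. Exposure and read share cannot be told apart by these 12 tumors.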

How the data were processed

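RNA from whole, unsorted tumors was read as 50-bp single-end, polyA-selected, unstranded libraries. Per the authors, reads were aligned to mm9 with TopHat 1.4.1 (submitters' processing notes: Bowtie 0.12.8, CASAVA 1.8.2, bedtools 2.16.2) and gathered on RefSeq gene models. The authors deposited a table for each tumor, with expected counts derived from base coverage of unambiguous exonic positions, and RPKM relative to all mapped reads. They tested with DESeq2.

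The expected counts were rounded, and the 17561 genes with at least 10 counts in all were fitted with edgeR 4.0.16 (TMM, quasi-likelihood test, 8 exposed against 4 no-dox, Benjamini-Hochberg adjustment over all fitted genes). A gene was called at adjusted p under 0.1, over 1.5-fold, mean RPKM over 0.25 and exonic length over 250 bp, which left 14350 genes that could be called. Errors of log2 fold changes are SEs, the fold changes are on the CPM scale, overlap between groups was judged on log2 CPM unless RPKM is named, and single values were tested by exact permutation. DESeq2 1.42.0, limma 3.58.1 and other settings were alternatives. The fit was tested on simulated data. Depth, 19845923 to 33137609 counted reads, was lower in most exposed tumors. Intervals for single counts are not given because replicates carry the error.

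Named genes were Trp53, the 10 higher and 10 lower called genes with the smallest p and no overlap, the 5 higher and 5 lower with the largest fold at mean RPKM over 1, up to 4 called or else 2 abundant members of each gene list, genes the study had measured otherwise and sex-linked genes. Symbols of the Gm, LOC and Rik kinds were counted and not named. The contrast, the gene lists and this rule were chosen with earlier results of these data known. Further genes (Srrm2, Macf1, Dst, Mll1, Mll2, Ogt, Mdn1, Klrk1, Xcl1, Klrb1c, Eomes, Cxcl1, Cxcl5, Cd3e, Gzma, Gzmb, Prf1, S100a8, S100a9, Siglec1, Cd274, Tcirg1, Spp1, Tspan8, Krt18 and most of the enzymes, p53 targets and apoptosis genes under the fold limit) were chosen after their values were seen. Coordinates are 1-based mm9, from the deposited tables. Part of the genotype and 1 gene list are not reported here.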

Additional observations from a re-analysis of the deposited data

Results flagged for a closer look

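Among 170 groups of 4 or 8 tumors whose spread was examined for the named genes, 15 held 1 tumor far from the others, and chance alone gives about 1 in 20. In the no-dox tumors these were no-dox 1 for the keratins Krt71 (13.4 RPKM), Krt25 (8.09), Krt28 (3.03) and Krt35 (3.56), for Mapk8ip3 (12.0) and for Pdgfrb (13.9), no-dox 2 for Gmds (43.7), no-dox 3 for Ltbp2, low at 7.47, and no-dox 4 for Slfn4, low at 0.951. In the exposed tumors they were off-dox 2 for Cxcl2 (4.68 RPKM) and Cxcl3 (8.90), plus-dox 2 for Vim (1756) and Krt28 (0.0410), and off-dox 1 for Krt71 (0.0562) and Krt25 (0.123). The hair keratins share their high tumor. Krt28 and Krt35 were looked up after Krt71 and Krt25 were seen.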

How the results depend on the processing

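The 223 calls (177 higher, 46 lower) sit close to the adjusted p limit, and their number depends on the setting. DESeq2 called 388 (324 higher, 64 lower) with and 558 (450, 108) without moderated fold changes. A limit of 0.05, a fit with the replicate block and a fit with the share of reads on genes as covariate each gave 0, with 3574, 3238 and 338 genes at an unadjusted p under 0.05. The replicate block paired tumors by number, although same-numbered tumors did not deviate together (mean r -0.09 over 12 pairs). Among subsets chosen after seeing the data, the 3 exposed tumors over 85% of reads on genes gave 0 (819 at an unadjusted p under 0.05) and the 5 others 807 (476, 331). These subsets also differ in size and arm. Leaving out 1 tumor gave 0 to 451 calls, 0 to 306 higher and 0 to 145 lower. The count was within 1.5 times the reported one for limma-voom, RLE scaling, both other count filters, limits before the test, the 3-group fit and the removal of plus-dox 2 with off-dox 4. The higher share of calls was 79.4%, and 68.7% with limma-voom. The pseudo-F of the profile was 2.55 (exact permutation p = 0.0162) with unit variance per gene and 2.10 (p = 0.0381) without plus-dox 2 and off-dox 4, and 1.44 to 2.37 without any 1 tumor. Trp53 turned to 0.17 with the share covariate, 0.072 in the over-85% subset and 0.063 without no-dox 2 (lowest -0.081 without any 1 tumor), and Vim to -0.093 without plus-dox 2 and off-dox 4 and -0.015 without plus-dox 2 alone (highest 0.30 without any 1 tumor). Causes were not tested.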

Other observations

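Several further gene groups were described by the same counts, beside 1.23% of all genes called higher. Egr2, an early response transcription factor also used by Schwann cells, was the 1 called member of 16 immediate early genes (median log2 fold change 0.11) and of 7 Schwann cell and nerve markers (median -0.12), at 2.40 to 3.30 RPKM in no-dox and 3.24 to 5.83 RPKM in exposed tumors (0.66 ± 0.18, SE, adjusted p = 0.0886, edgeR). In 16 basement membrane genes (median 0.25) the perlecan gene Hspg2 passed the adjusted p limit under the fold limit, at 19.6 to 22.3 RPKM without dox and 26.1 to 36.0 RPKM with it (0.55 ± 0.12). Pde1b and Pde4a, phosphodiesterases that break down cyclic nucleotides and were picked after their values were seen, were called higher by 1.02 and 0.94 on the log2 scale. Trpm2, a calcium channel of myeloid cells, and Il1f9, an IL-1 family cytokine, picked in the same way, were called higher by 0.95 and 1.02.

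Igfn1, a gene of striated muscle picked after its values were seen, was at 0 to 0.00656 RPKM in no-dox and 0 to 3.14 RPKM (median 0.545) in exposed tumors. Fgf21, a metabolic hormone induced by the integrated stress response, was at 0.125 to 0.477 RPKM in no-dox and 0.352 to 1.68 RPKM in exposed tumors, with a log2 fold change of 1.62 ± 0.51 and adjusted p = 0.109 (edgeR). Igf2 was highest in plus-dox 3 and 4, at 4.71 and 2.71 RPKM, the tumors with Xist.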
